A study of Mus musculus with 12 samples.

Results

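H3K79me2 is the dimethylated form of lysine 79 in the globular core of histone H3. DOT1L is the methyltransferase that places it. The mark lies over transcribed genes, mainly over the first part of the gene body downstream of the start, and widens with transcription. EPZ-5676 (pinometostat) and SGC-0946 are small molecules that occupy the S-adenosylmethionine pocket of DOT1L and inhibit it.

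The domains described here are the H3K79me2 peaks of vehicle-treated CD8 T cells that kept a called peak over most of their length in EPZ-5676. They were chosen by EPZ coverage: a peak of the DMSO list was a member when 50% or more of its bases lay under peaks of the EPZ list. This rule gave 1067 of 12578 DMSO peaks, or 8.48% (exact 95% binomial interval 8.00% to 8.98%, over peaks), called retained domains below. Another 2315 DMSO peaks had some EPZ coverage under 50% and are called partly covered, and 9196 had none and are called uncovered. Retained means that a peak was still called, not that the signal kept its level.

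Mouse CD8 T cells were stimulated through CD3 and CD28 and grown for 8 days with EPZ-5676 (labelled 10 mM), SGC-0946 (labelled 10 mM) or DMSO (0.1%), given every 2 days. In every group the cells came from males of the strain labelled CreERT2;DOT1L-flox;OT-I with the genotype labelled wt;wt;het; OT-I is a transgenic T cell receptor against an ovalbumin peptide. Each treatment had 2 biological replicates, each with an immunoprecipitated and an input library, 12 libraries in all, with yeast chromatin spiked in. The deposited lists hold 4443 peaks for EPZ, 55 for SGC and 12578 for DMSO, 1 list per treatment, so no spread between replicates and no sequencing depth can be read from them. No test between treatments was possible, intervals cover the counting of peaks or genes only, and a difference in coverage between lists cannot be told apart from a difference in the depth behind them. The labelled cell type was checked against marker genes. Of the 20 T cell receptor and identity genes, 19 had a DMSO peak, among them Cd3d, Cd3g, Cd8a, Cd8b1 and Thy1. Of the 15 myeloid genes none had a DMSO peak, and 1 of 12 B cell genes (Cd79a) and 1 of 20 genes of other tissues (Mbp) had one. A DMSO peak was also present at 5 of 13 NK cell genes and 2 of 10 CD4 helper and regulatory T cell genes.

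Sequences that stand under domains of high DMSO fold enrichment or many SGC bases are shown first. They are the RefSeq promoters (GRCm38.p6, 250 bases before to 50 after the start, read 5′ to 3′ in gene direction) of 6 genes whose start lies in a retained domain of highest DMSO fold enrichment or most SGC bases. Capitals mark matches on either strand to any of 8 motifs, among them the GC box GGGCGG, the CCAAT box CCAAT, the TATA box TATAAA and the E box CACGTG.
Mbnl1 (chr3:60500929-60501228, + strand): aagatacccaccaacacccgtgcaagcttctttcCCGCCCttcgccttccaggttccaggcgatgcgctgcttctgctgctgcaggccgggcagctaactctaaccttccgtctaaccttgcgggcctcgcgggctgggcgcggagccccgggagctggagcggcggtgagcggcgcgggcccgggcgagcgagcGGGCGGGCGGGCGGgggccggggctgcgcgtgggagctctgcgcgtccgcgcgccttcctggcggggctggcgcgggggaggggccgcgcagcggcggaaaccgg
Lfng (chr5:140607091-140607390, + strand): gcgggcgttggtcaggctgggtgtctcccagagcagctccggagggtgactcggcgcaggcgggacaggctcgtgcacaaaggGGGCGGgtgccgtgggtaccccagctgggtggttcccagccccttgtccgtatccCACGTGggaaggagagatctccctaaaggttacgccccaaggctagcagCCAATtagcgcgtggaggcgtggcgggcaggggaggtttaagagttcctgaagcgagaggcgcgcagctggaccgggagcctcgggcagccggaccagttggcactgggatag
Ptprc (chr1:138175256-138175555, - strand): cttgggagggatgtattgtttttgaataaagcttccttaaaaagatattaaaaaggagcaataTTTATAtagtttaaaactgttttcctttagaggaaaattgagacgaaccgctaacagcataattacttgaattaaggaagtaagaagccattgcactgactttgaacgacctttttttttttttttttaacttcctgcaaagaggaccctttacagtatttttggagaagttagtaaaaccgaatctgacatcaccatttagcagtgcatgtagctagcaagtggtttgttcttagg
Fam78a (chr2:32083656-32083955, - strand): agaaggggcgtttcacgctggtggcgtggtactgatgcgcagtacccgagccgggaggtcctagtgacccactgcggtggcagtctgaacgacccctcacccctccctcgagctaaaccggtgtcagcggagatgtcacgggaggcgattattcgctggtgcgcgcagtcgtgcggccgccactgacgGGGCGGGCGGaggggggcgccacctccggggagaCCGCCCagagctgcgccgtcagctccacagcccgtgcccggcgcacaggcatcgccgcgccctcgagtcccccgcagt
Ptma (chr1:86526307-86526606, + strand): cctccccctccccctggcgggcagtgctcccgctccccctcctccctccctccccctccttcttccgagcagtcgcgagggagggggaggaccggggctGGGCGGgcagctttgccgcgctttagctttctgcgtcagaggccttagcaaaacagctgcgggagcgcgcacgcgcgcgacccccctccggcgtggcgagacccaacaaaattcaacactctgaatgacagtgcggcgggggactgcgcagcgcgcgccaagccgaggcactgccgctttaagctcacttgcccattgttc
Shisa5 (chr9:109052604-109052903, + strand): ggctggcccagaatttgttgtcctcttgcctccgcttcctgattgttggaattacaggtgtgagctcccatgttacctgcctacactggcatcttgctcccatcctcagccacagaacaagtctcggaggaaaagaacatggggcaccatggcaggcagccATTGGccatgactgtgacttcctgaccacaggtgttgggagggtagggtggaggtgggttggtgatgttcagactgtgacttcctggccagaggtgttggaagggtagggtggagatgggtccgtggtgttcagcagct
The 6 promoters are not alike in composition. Mbnl1, Fam78a, Ptma and Lfng have 75%, 70.3%, 68.0% and 66.7% G and C, and hold 41, 35, 28 and 22 CpG dinucleotides. Shisa5 has 55.7% G and C with 3 CpG, and the Ptprc promoter has 33.7% with 4 CpG and a TATAAA match on the reverse strand. The GC box occurs 4 times in the Mbnl1 promoter, where 3 copies overlap end to end, and 3 times in that of Fam78a. High enrichment and EPZ retention therefore occurred over both CpG-rich and AT-rich starts.

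Retained domains took up 15.8 Mb, which is 23.1% of all bases in the DMSO list, and EPZ peaks covered 10.8 Mb of them. That is 59.9% of all bases in the EPZ list, and 1397 of the 4443 EPZ peaks touched a retained domain. Coverage of the members had a median of 64.9% (quartiles 56.6% and 75.1%). Of the 1067 domains, 392 were covered over 50% to under 60%, 291 over 60% to under 70%, 230 over 70% to under 80%, 108 over 80% to under 90%, 32 over 90% to under 100%, and 14 over all their bases. Just inside it were the domains of Rplp1, a ribosomal stalk protein (50.0%), Slc9a3r1, Slc30a5 (both 50.03%) and Snrpa1, a U2 snRNP protein (50.05%). Just outside were those of Gnb1 and the glycolytic enzyme Eno1 (both 49.96%), Pdcd6ip (49.94%) and Imp3 (49.90%).

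In 874 retained domains (81.9%, interval 79.5% to 84.2%) the EPZ coverage was 1 unbroken piece. In 118 it came in 2 pieces and in 75 in 3 or more. Partly covered peaks had 1 piece at a similar share (80.0%). The domain in the most pieces was that of Ankrd11, a chromatin regulator, with 9.

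By the authors' fold enrichment over background at each peak, retained domains were the strong end of the DMSO list. Their median was 7.93 (quartiles 6.73 and 9.48), against 5.34 in partly covered and 3.08 in uncovered peaks. Of the 210 DMSO peaks with a fold enrichment of 10 or more, 198 were retained. Fold enrichment and coverage come from overlapping reads and peak calls, so this is a description of what the rule selected. Among the members themselves coverage and DMSO fold had a Spearman rho of 0.318 across domains, which share the same libraries. The rule limits members to coverage of 50% or more, so this value does not describe the whole DMSO list. Over all DMSO peaks the retained share was 0.181% below a fold of 4, 56.25% between 7 and 8, and 94.3% at 10 or more. The difference from partly covered peaks was smaller for width. The median width was 9701 bases in retained, 8699 in partly covered and 1546 in uncovered peaks, and members ran between 304 and 175546 bases. The strongest EPZ peak over each domain had a median fold enrichment in the EPZ list of 5.86 for retained domains and 3.60 for partly covered peaks.

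**Figure D1:**
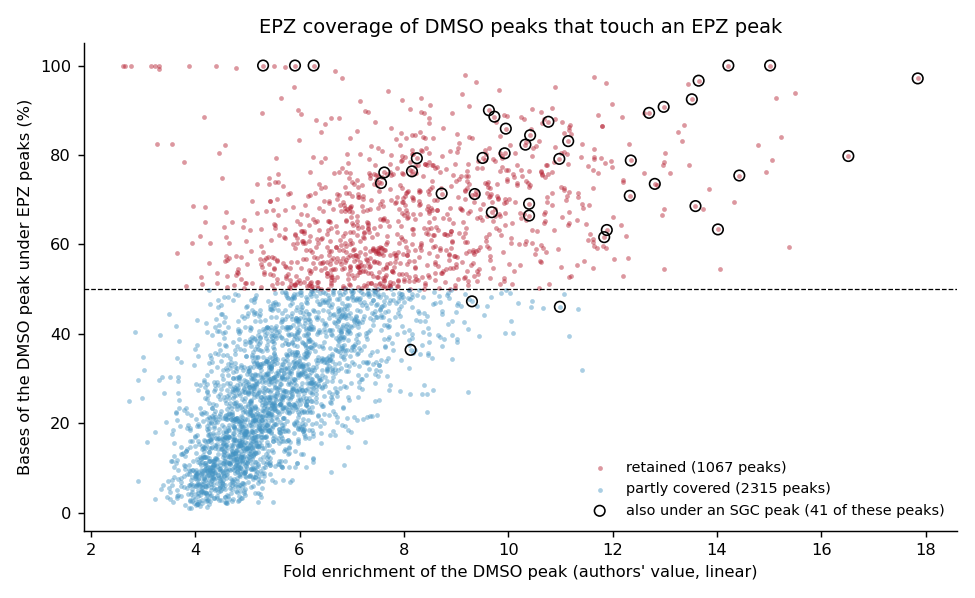
Each point is a DMSO peak that touches an EPZ peak, with its fold enrichment in the DMSO list (x, the authors' linear value) and the percent of its bases under EPZ peaks (y). Red points are the 1067 retained domains, blue points the 2315 partly covered peaks, circles mark peaks that also touch an SGC peak, and the dashed line is the 50% limit; the circles lie mostly at high DMSO fold, and a row of points at 100% holds the fully covered domains.

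The retained domain of highest DMSO fold enrichment (17.9) was a 312-base peak on chromosome 18 outside any annotated gene, covered over 97.1%. An SGC peak also lay over 307 of its bases. Lfng, a Fringe glycosyltransferase that modifies Notch receptors, followed with 16.5 over 10.4 kb and 79.8% coverage. Fam78a had 15.5 over 20.7 kb, covered over 93.9%. Ptma, which encodes prothymosin alpha, had 15.4, with 59.3% of its 6.18 kb covered. Shisa5 had 15.2 with 84.0% coverage. Msl2, a subunit of the MSL histone acetyltransferase complex, and Ptbp1, a splicing repressor, both had 15.1, with 92.8% and 78.9% coverage. The shorter of the Mbnl1 domains, Vps37b of the ESCRT-I complex, and Jpt1 completed the 10 highest, with 15.0, 14.9 and 14.8 and coverage of 100%, 76.2% and 82.1%. Coverage in these 10 lay between 59.3% and 100%, within the 50% or more that the rule required. Another 12 DMSO peaks with a fold of 10 or more had less coverage than that and were not members.

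Bcl2, the anti-apoptotic founder of its family, had the widest retained domain at 175.5 kb, of which 119.3 kb in 4 pieces was under EPZ peaks. Ankrd11 had 147.0 kb with 112.5 kb covered. Mbnl1, a regulator of alternative splicing, had a 127.5 kb domain with 113.0 kb covered in 2 pieces. Tbl1xr1, a subunit of the NCoR corepressor, had 91.6 kb and was covered over only 51.6% in 6 pieces. Bcl11b, a transcription factor that maintains T cell identity, had 91.1 kb and was covered over 92.5%. Inpp4b, a lipid phosphatase, Pde3b, a cAMP phosphodiesterase, Ikzf1, which encodes Ikaros, and Grap2, an adaptor of T cell receptor signalling, had 89.6, 87.7, 86.6 and 83.4 kb, with 57.8%, 85.9%, 79.3% and 78.8% covered. A 78.99 kb domain at the T cell receptor alpha locus was covered over 97.5%. In all, 48 members were wider than 50 kb and 39 narrower than 2 kb.

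**Figure D2:**
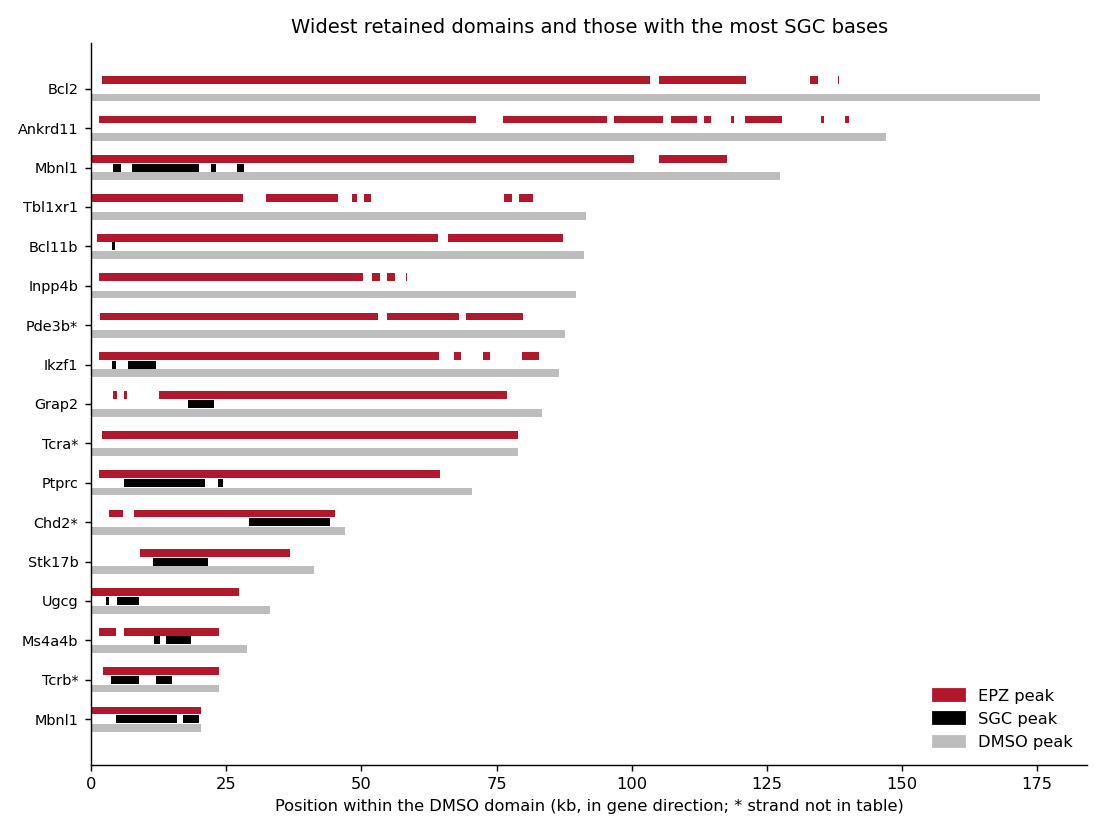
Retained domains among the 10 widest or the 10 with the most SGC bases, drawn to scale in kb from the upstream end in gene direction (asterisk: strand not in the table used, drawn by rising coordinate). Red bars are EPZ peaks, black bars SGC peaks and grey bars the DMSO domain; EPZ peaks start at or near the upstream end of the domain in most rows, their gaps lie mainly in the downstream part, and SGC peaks lie inside EPZ peaks.

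Members of weak DMSO enrichment were few: 15 retained domains had a fold enrichment under 4. The lowest were a 344-base and a 2.12 kb peak at the T cell receptor gamma locus (2.62 and 2.78) and a 307-base peak at the T cell receptor alpha locus (2.66). Il7r, the interleukin-7 receptor alpha chain, followed with 3.15 for a 600-base peak, then Samd3 (3.23), Gm12596 (3.28), Gvin1 (3.30), Gm40892 (3.31) and Ifitm2 (3.56). Of these, the receptor peaks, Il7r, Samd3 and Gm40892 were covered in full, and 1 EPZ peak spanned both peaks at the gamma locus. The fully covered members were thus a mixed class. The widest were the 20.4 kb Mbnl1 domain (DMSO fold 15.0), 10.1 kb and 7.09 kb domains at the T cell receptor alpha locus (4.40 and 5.30), and the 6.39 kb domain of Malat1, an abundant nuclear long noncoding RNA (14.2). Gm40892, the gamma locus peak, Samd3, Gm4070, Il7r and Acpp made up the other 6 of the 10 widest, at 3.54 kb or less.

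Retained domains were next placed relative to gene starts. A protein-coding gene start lay inside 570 of the 1044 retained domains on chromosomes with listed starts (54.6%, interval 51.5% to 57.7%), against 1026 of 2241 partly covered (45.8%, 43.7% to 47.9%) and 688 of 8895 uncovered peaks (7.73%, 7.19% to 8.31%). Within bins of DMSO fold this order was not kept: between 7 and 8 the share was 60.6% in retained and 60.6% in partly covered peaks, and between 8 and 10 it was 58.3% and 67.5%. Within bins of width from 2 kb upwards retained domains had the higher share, as between 20 and 50 kb, with 64.1% in retained and 44.5% in partly covered peaks. With a start allowed within 1 kb of the peak the shares were 78.1% and 78.5%. The difference in gene starts between retained and partly covered peaks thus depended on how the peaks were matched. A coding gene was touched by 1021 retained domains (95.7%), and 152 (14.3%) touched several.

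Within the domain, EPZ coverage followed the gene. Of the retained domains 444 held listed starts of only 1 coding gene and touched no other coding gene. Where several starts of that gene lay in the domain, the most upstream was used. The first EPZ base lay at a median of 30.5 bases downstream of that start (quartiles -117.5 and 226, negative being upstream), and the first DMSO base at -393.5. The last EPZ base lay 6813 bases downstream and the last DMSO base 9760. EPZ peaks covered 72.0% of all domain bases downstream of the start and 43.3% of those upstream, pooled over domains. Per domain the medians were 69.7% downstream and 0% upstream, so the pooled upstream share does not describe the median domain. The start base itself was under an EPZ peak in 192 of the 444 domains (43.2%, interval 38.6% to 48.0%). Loss was greater at the far end than at the end nearest the start in 397 domains (89.4%), with medians of 2505.5 bases lost at the far end and 417.5 at the near end. Averaged over 20 equal bins from the upstream to the downstream end, 32.6% of the first bin was covered, 98.4% of the 7th and 2.76% of the last.

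The same asymmetry was present in the 700 partly covered peaks chosen in the same way, with listed starts of only 1 coding gene. Their shorter EPZ reach and lower EPZ coverage follow from the rule that set the classes and are given as a description. Their first EPZ base lay 197 bases and their last 2484.5 bases downstream, while their DMSO peaks ended at 8056 bases. More was lost at the far end in 660 of them (94.3%). EPZ peaks covered 40.6% of the gene body in the retained class and 10.0% in the partly covered class (medians), and DMSO peaks 66.3% and 41.9%. Read at fixed distances, 99.1% of retained starts had an EPZ peak 1 kb downstream, 92.1% at 2 kb, 61.3% at 5 kb, 34.5% at 10 kb and 17.1% at 20 kb. DMSO peaks were present at 100%, 98.7%, 75%, 53.4% and 32.7% of the same positions. For partly covered starts the EPZ values were 78.3%, 56.0%, 21.3%, 8.57% and 2.43%. The farthest distance with a peak at 50% or more of starts was 6.5 kb for EPZ and 10.75 kb for DMSO in retained domains, and 2.0 kb and 9.25 kb in partly covered ones.

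**Figure D3:**
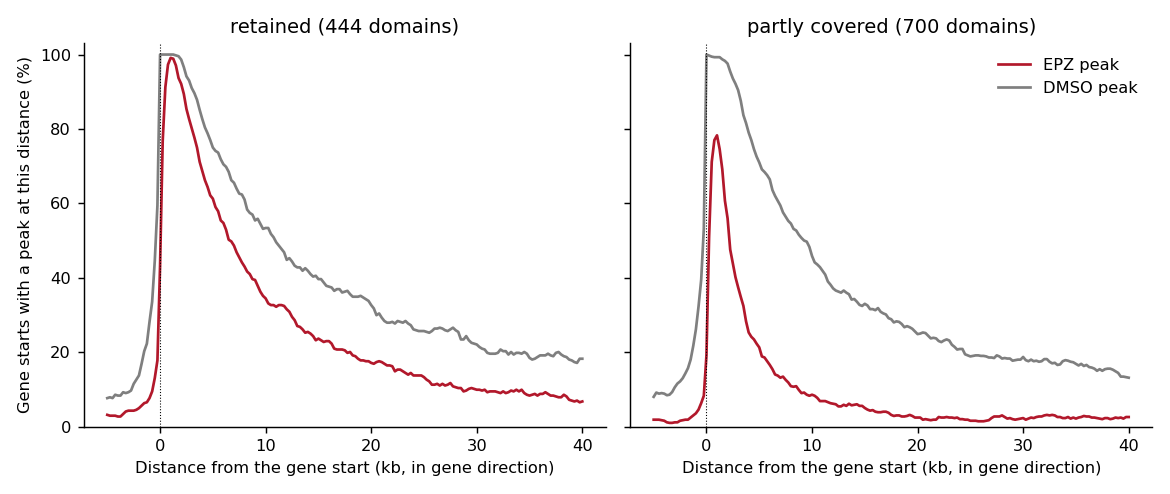
Percent of gene starts with a peak at each distance from the start (x, kb, in gene direction). Shown are 444 retained domains (left) and 700 partly covered peaks (right) that hold listed starts of only 1 coding gene and touch no other. Distances run from the most upstream of those starts in the domain. The red line is EPZ and the grey line DMSO; both EPZ lines are highest 1 kb downstream, at 99.1% on the left and 78.3% on the right, and fall off sooner on the right.

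SGC-0946 left few peaks, and the retained domains held nearly all of them. Over the whole DMSO list 42 peaks touched an SGC peak, or 0.334%. Of the retained domains 38 did (3.56%, interval 2.53% to 4.86%), against 3 partly covered (0.130%, 0.0267% to 0.378%) and 1 uncovered peak (0.0109%). They contained 134.6 of the 137.9 kb in SGC peaks (97.6%), and 134599 of those 134603 bases were also under EPZ peaks. The SGC list was not used to choose the members, but it shares the DMSO list as its yardstick and comes from 1 pooled call. Retained domains with an SGC peak had medians of 10.6 for DMSO fold, 79.6% for EPZ coverage and 19451 bases for width. In the 1029 without one the medians were 7.86, 64.2% and 9405 bases. The 38 include short peaks unlike the gene-wide domains: 312 bases on chromosome 18, 324 at Ano2 and 304 at Gm34259. Of these, 307, 318 and 232 bases lay under SGC peaks.

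Mbnl1 held the most SGC bases, with 16.0 kb in its 127.5 kb domain and 14.4 kb in the 20.4 kb domain beside it. Ptprc, which encodes the CD45 phosphatase needed for T cell receptor signalling, had 15.7 kb of its 70.5 kb domain under SGC peaks and 63.0 kb under 1 EPZ peak. Its larger SGC peak ran between 6.18 and 21.0 kb from the upstream end of the domain. Chd2, a chromatin remodeller, had 14.9 kb under SGC peaks. Stk17b, a kinase that limits T cell receptor signalling, had 10.1 kb and the T cell receptor beta locus 8.27 kb. Ikzf1, Ms4a4b, Grap2 and Ugcg, the glucosylceramide synthase, had 5.99, 5.93, 4.84 and 4.64 kb. Enrichment values in the EPZ list were high over these: 40.96 at the shorter Mbnl1 domain, the highest of all members, 37.6 at Ptprc, 32.4 at Stk17b and 26.1 at Chd2. Those values rank peaks within the EPZ list only and say nothing of a change against DMSO.

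Retained domains touched 1187 of the 7560 protein-coding genes with a DMSO peak, or 15.7%. The marked genes of 29 lists were set against that share, each as a count with no test. The lists were written with earlier results of these data known. Genes with a high DMSO fold were retained more often in general: 84.2% of all marked genes whose strongest DMSO peak reached a fold of 8 or more, 39.0% between 6 and 8, and 2.40% below 6. The list counts below are to be read beside these shares, and a count given without shares by DMSO fold is not matched for it. Of the 280 list genes in retained domains, 66 shared the domain with another coding gene and 3 had less than 1 kb of their length in it. Each percentage given for a gene is the coverage of its whole domain, which can be much wider than the gene. At Cdkn1b 5.125 kb of a 32.0 kb domain lay in the gene.

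The T cell receptor signal begins with kinases such as Lck and Zap70, which lead to phosphorylation of the adaptors Lat and Lcp2. Of the 25 proximal signalling genes, all marked in DMSO, 16 were retained, and their median DMSO fold was 8.09, against 4.47 over all marked genes. Themis, a thymocyte selection adaptor, had the most complete coverage at 97.9% of 39.4 kb, and Malt1, a protease of NF-kB activation, the least at 50.8%. Lck was covered over 79.1% (DMSO fold 11.6), Lcp2 over 72.7%, Lat over 59.4% and Zap70 over 52.7%. The kinase Fyn (29.1%), the phosphatase Ptpn6 (19.3%) and the ubiquitin ligase Cblb (17.4%) were among the 9 partly covered. All 13 genes of this list with a DMSO fold of 8 or more were retained, beside 84.2% of all genes of that strength. Between 6 and 8, 2 of 8 were retained (25%, beside 39.0%), and below 6, 1 of 4.

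Among T cell receptor and identity genes 10 of 19 were retained. With a DMSO fold of 8 or more it was 10 of 11 (90.9%), beside 84.2% of all genes of that strength. Between 6 and 8 it was 0 of 4, beside 39.0%, and below 6 it was 0 of 4, beside 2.40%. Bcl11b had the highest coverage (92.5%) and Thy1 the lowest (68.8%) of those retained. Cd28, the costimulatory receptor, was covered over 89.4%, Cd8a over 76.3%, Tcf7, which encodes TCF-1, over 71.8%, and Runx3, a regulator of CD8 fate, over 71.6%. Of the 28.2 kb Cd8a domain 5.16 kb lay in Cd8a, and of the 38.5 kb Thy1 domain 5.08 kb lay in Thy1. Cd3d and Cd3g share a 14.1 kb domain covered over 75.1%. Their neighbour Cd3e (31.7%) and Cd8b1 (31.7%), the partner of Cd8a, were partly covered, as were Cd247, Cd2, Cd5, Cd6, Gata3, Ikzf3 and Lef1. The receptor complex was therefore split between the classes.

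Of 22 cytotoxic effector genes 10 were marked in DMSO and 7 of these retained. With a DMSO fold of 8 or more it was 4 of 5 (80%), beside 84.2% of all genes of that strength. Between 6 and 8 it was 3 of 4 (75%), beside 39.0%, and below 6 it was 0 of 1. The death ligand gene Fasl (92.1%) had the highest coverage, and Srgn, which encodes the granule proteoglycan serglycin, the lowest (50.6%). Tbx21, which encodes T-bet, Id2 and granzyme B (Gzmb) were covered over 77.8%, 76.2% and 70.9%. Tnf and Nkg7 lie in domains with 3 coding genes each, covered over 54.9% and 52.4%. Eomes (40.5%) and Gzmm (38.2%) were partly covered and Lamp1 uncovered.

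MHC class I and interferon genes were retained in 10 of 17 cases (median DMSO fold 8.56). With a DMSO fold of 8 or more it was 9 of 9, beside 84.2% of all genes of that strength. Between 6 and 8 it was 1 of 2, beside 39.0%, and below 6 it was 0 of 6, beside 2.40%. H2-K1, a classical class I heavy chain, was covered over 90.01% and H2-D1 over 75.9%. B2m, the class I light chain, had the highest DMSO fold among the retained genes of the list (14.02) and was covered over 63.4%. Psmb8, Psmb9, Tap1 and Tap2 lie in 1 domain of 27.1 kb, covered over 66.5%. H2-T23 was the lowest at 59.8%. The transactivator Nlrc5 (83.7%) and Irf1 (80.4%) were also retained, while Irf2, Irf3, Irf8, Irf9 and Tapbp were partly covered.

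Gimap genes, a cluster of lymphocyte GTPases on chromosome 6, were retained in 7 of 8 cases. All 7 with a DMSO fold of 8 or more were retained, beside 84.2% of all genes of that strength. The 1 gene between 6 and 8 was not, beside 39.0%. Gimap6 had the highest coverage (86.5%) and Gimap3 the lowest (52.2%) of those retained. Gimap1, Gimap5 and Gimap7 share a 35.1 kb domain covered over 84.7%, and Gimap4 and Gimap9 one of 18.5 kb covered over 71.3%. The 7 genes thus stand for 4 domains. Gimap8 was covered over 30.7%.

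The actin cytoskeleton list had 24 of 32 genes retained (75%). They include Dock2, a Rac activator of lymphocytes (82.6%, the highest), Coro1a (51.3%, the lowest), actin itself (Actb, 61.6%), Myh9 (70.9% of 74.0 kb) and the Arp2/3 subunits Arpc1b and Arpc2 (81.3% and 66.5%). The subunits Arpc3, Arpc4 and Arpc5 were partly covered. With a DMSO fold of 8 or more, 19 of 21 were retained (90.5%), beside 84.2% of all genes of that strength, and between 6 and 8 it was 4 of 5. Homing and adhesion genes were retained in 8 of 17 cases. The chemokine receptor genes Ccr2 (75.7%) and Cxcr4 (74.9%) were among them, and Coro1a was again the lowest.

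Survival genes were retained in 6 of 12 cases. With a DMSO fold of 8 or more it was 3 of 3, beside 84.2% of all genes of that strength. Between 6 and 8 it was 3 of 6, beside 39.0%, and below 6 it was 0 of 3, beside 2.40%. Pim2, a serine/threonine kinase, had the highest coverage (94.6%). Mcl1, an anti-apoptotic family member, had the lowest of those retained (51.9%, in a domain with 2 genes). Bcl2 (68.0%) and the pro-apoptotic effector Bak1 (55.9%) were retained, and Bax, Bbc3, Bcl2l1, Bcl2l11 and Pmaip1 partly covered. Cytokine receptor and JAK-STAT genes were retained in 12 of 29 cases. In the same order of DMSO fold it was 6 of 8, 6 of 10 and 0 of 11. Il12rb2 had the highest coverage (89.1%) and Il4ra the lowest (50.2%) of those retained. The 3 chains of the interleukin-2 receptor, Il2ra, Il2rb and Il2rg, were covered over 69.6%, 67.6% and 64.3%, and the feedback inhibitors Cish, Socs3 and Socs1 over 83.1%, 71.6% and 60.9%.

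Of 17 naive and memory genes 6 were retained. Il7r was covered in full over its 600-base peak, and Satb1 over 76.5%, the lowest. Klf2, S1pr1 and Ets1 were among those between, at 80.4%, 87.4% and 87.2%. Of 15 inhibitory receptor and exhaustion genes 6 were marked and 1 retained, Ctla4 (61.4%). Glycolysis and Myc genes were retained in 10 of 21 cases, with Hif1a the highest (92.7%), Myc at 88.0%, Gapdh at 64.7% and Pgk1 the lowest (55.6%). Cell cycle genes were retained in 10 of 30, with Cdkn1b (81.2%) highest and Pcna (50.8%) lowest. With a DMSO fold of 8 or more it was 5 of 8 (62.5%), beside 84.2% of all genes of that strength. Between 6 and 8 it was 5 of 12 (41.7%), beside 39.0%, and below 6 it was 0 of 10, beside 2.40%.

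**Figure D4:**
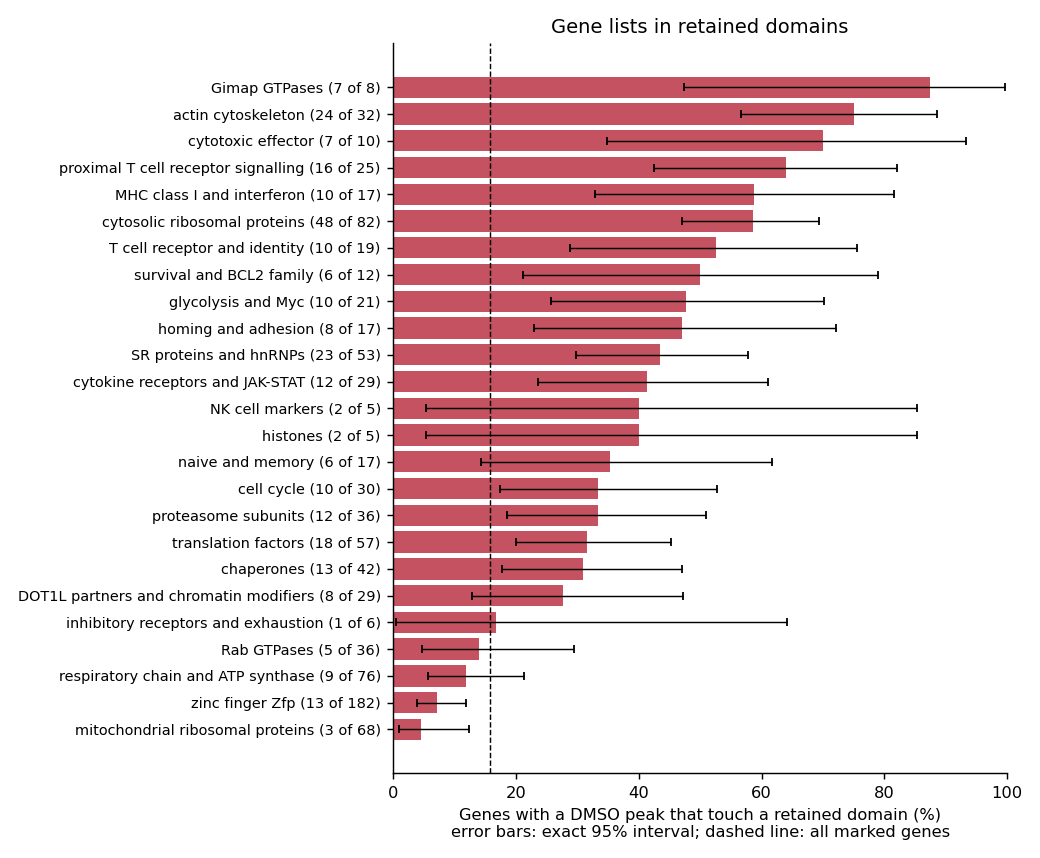
Percent of the DMSO-marked genes of each list that touch a retained domain (bars), with exact 95% binomial intervals over genes; lists with fewer than 5 marked genes are left out. The dashed line is the 15.7% of all marked protein-coding genes. Gimap GTPases (7 of 8) are highest and mitochondrial ribosomal proteins (3 of 68) lowest, and the bars are not matched for DMSO fold.

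Housekeeping groups were divided. Cytosolic ribosomal protein genes were retained in 48 of 82 cases (58.5%, interval 47.1% to 69.3%), with Rpl10a the highest (95.2%) and Rplp1 the lowest (50.0%). At a DMSO fold of 6 to 8 their share was 21 of 40, or 52.5%, beside 39.0% of all genes, and below 6 it was 5 of 15, or 33.3%, beside 2.40%. At 8 or more it was 22 of 27, or 81.5%, beside 84.2%. Their domains are short: Rpl10a had 1.96 kb, Rpl13 2.48 kb and Rps16 2.78 kb. Mitochondrial ribosomal protein genes were retained in 3 of 68 cases (4.41%, interval 0.919% to 12.4%), namely Mrpl20, Mrpl12 and Mrpl58, with a median DMSO fold of 3.61. Of the 62 with a fold below 6, 2 were retained (3.23%), close to the 2.40% of all genes of that strength. Respiratory chain and ATP synthase genes were retained in 9 of 76 cases, with Atp5j2 (89.9%) the highest and Ndufs1 (51.2%) the lowest. Below a fold of 6 it was 2 of 56 (3.57%), beside 2.40%. Between 6 and 8 it was 7 of 18 (38.9%), beside 39.0%, and at 8 or more 0 of 2.

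Genes of SR proteins, hnRNPs and other RNA-binding splicing proteins, such as Mbnl1, Celf2 and Khdrbs1, were retained in 23 of 53 cases. Mbnl1 (100%) and Hnrnpf (96.6%) had the most complete coverage and Hnrnph3 (53.2%) the least. Of the 21 with a DMSO fold of 8 or more, 12 were retained (57.1%), beside 84.2% of all genes of that strength, and of the 17 between 6 and 8, 10 were retained (58.8%), beside 39.0%. Below 6 it was 1 of 15. Translation factors were retained in 18 of 57 cases (Eif5a highest at 92.3%, Eef1b2 lowest at 51.2%), proteasome subunits in 12 of 36 (Psmd8 78.5%, Psma7 51.4%) and chaperones in 13 of 42 (Cct7 85.2%, Dnaja1 50.7%). Of 77 histone genes 5 were marked and 2 retained, the replacement variant genes H3f3b (66.1%) and H2az1 (56.5%). Zinc finger Zfp genes were retained in 13 of 182 cases (7.14%), with Zfp91 (83.9%) highest and Zfp292 (50.1%) lowest. Below a DMSO fold of 6 it was 4 of 164 (2.44%), beside 2.40% of all genes of that strength. Between 6 and 8 it was 4 of 12, beside 39.0%, and at 8 or more 5 of 6, beside 84.2%. Rab GTPases were retained in 5 of 36 cases, with Rab1a (78.0%) highest and Rab37 (50.03%) lowest. In the same order of DMSO fold it was 2 of 26, 1 of 6 and 2 of 4.

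DOT1L itself was not in a retained domain: the Dot1l peak had a DMSO fold of 7.89 and was covered over 44.7%. Of the 29 marked genes of its partners and other chromatin modifiers 8 were retained. Dnmt1, the maintenance DNA methyltransferase, was the highest (72.3%) and Kmt2d the lowest (54.4%), and Ezh2 (69.5%), Setd2 (67.4%), Hdac7 (66.8%), Arid1a (58.0%) and Hdac1 (55.7%) were among those between. Of the AF9 and AF10 family genes that encode DOT1L partners, Mllt1, Mllt3 and Mllt10 were uncovered and Mllt6 was covered over 15.0%.

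Of 13 NK cell genes 5 were marked and 2 of these retained (40%, interval 5.27% to 85.3%), beside 15.7% of all marked genes. Klrk1, a receptor that activated CD8 T cells also carry, was covered over 78.4%, and Tyrobp touched a shared domain by 0.698 kb. The single marked B cell gene Cd79a was partly covered, with 0.254 kb of the peak in the gene, and both marked CD4 helper and regulatory genes (Cxcr5, Ikzf2) were uncovered.

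Promoters were compared by the class of the DMSO peak over the start, with 813 promoters of 654 genes in retained domains, 1472 in partly covered and 928 in uncovered peaks, and 21262 promoters in all. The GC box GGGCGG was present in 63.3% of promoters in retained domains (515, interval 59.9% to 66.7%), 60.9% in partly covered and 59.2% in uncovered peaks, beside 46.2% of all. The median CpG observed to expected ratio was 0.811, 0.833 and 0.785 in the 3 classes and 0.567 over all, and the median G and C content 62.3%, 61.3%, 60.7% and 56.3%. Marked promoters thus differed from all promoters in base composition, and the 3 classes differed little from each other. CCAAT (37.6%, 35.4%, 35.8% and 38.2% of all), CACGTG (10.1%, 10.4%, 8.94% and 7.84%), the YY1 motif AAGATGGC (6.64%, 6.997%, 7.76% and 3.05%) and the NRF1 motif GCATGCGC (4.55%, 5.43%, 6.14% and 3.51%) had overlapping intervals in the 3 classes. The cyclic AMP response element TGACGTCA was present in 3.81%, 2.38%, 4.31% and 2.23%.

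The ETS motif CCGGAAGT was rarer in retained domains. It was present in 54 of 813 promoters in retained domains (6.64%, interval 5.03% to 8.58%), against 200 of 1472 (13.6%, 11.9% to 15.4%) in partly covered and 147 of 928 (15.8%, 13.6% to 18.4%) in uncovered peaks, and in 5.15% of all promoters. At matched DMSO fold the difference was smaller between 6 and 8, with 8.71% in retained and 10.6% in partly covered peaks. At 8 or more it was 4.84% and 10.5% (21 of 434 and 8 of 76), with overlapping intervals (3.02% to 7.30% and 4.66% to 19.7%). Below 6 it was 8.70% and 15.3% (6 of 69 and 144 of 942), again with overlapping intervals. TATAAA was present in 8.12% of promoters in retained domains (interval 6.33% to 10.2%) and 5.77% in partly covered peaks (4.64% to 7.09%). In uncovered peaks it was 5.82% (4.40% to 7.53%), beside 12.6% of all promoters. Below a fold of 6 it was 13.04% in retained and 5.63% in partly covered peaks (9 of 69 and 53 of 942). Between 6 and 8 it was 5.81% and 5.95%, and at 8 or more 8.99% and 6.58% (39 of 434 and 5 of 76). The intervals of the 2 classes overlapped in each of these bins. Matches were counted on both strands, several promoters can belong to 1 gene, and a match is a run of letters, not a bound site.

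**Figure D5:**
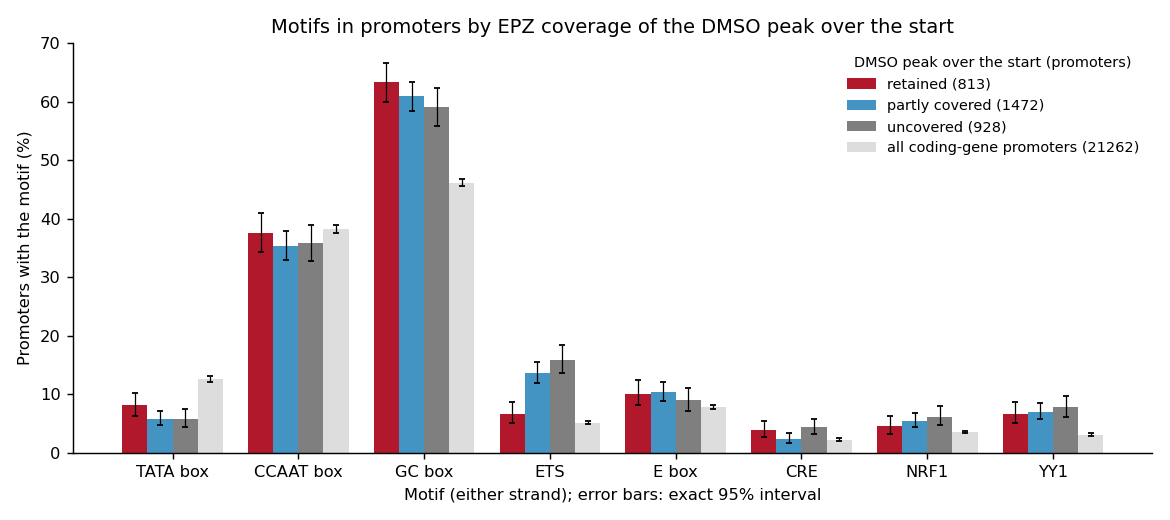
Percent of promoters (300 bases) that hold each of 8 motifs on either strand, by the class of the DMSO peak over the start, with exact 95% binomial intervals over promoters. The ETS bars are 6.64% in retained, 13.6% in partly covered and 15.8% in uncovered peaks, while the GC box bars lie near each other and above the 46.2% of all promoters.

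MicroRNA genes were also under these domains. Of 126 microRNA genes under DMSO peaks, 51 lay in retained domains (40.5%), 38 in partly covered and 37 in uncovered peaks. The 51 genes share 37 domains, and 33 partly covered and 34 uncovered peaks hold the others. Retained domains were 8.48% of DMSO peaks but held 23.1% of their bases, and 15.7% of marked coding genes touched a retained domain. Shares of peaks, bases and genes are unlike units, and peak width was not matched. Many sit inside a host gene, so the domain belongs to the host as much as to them. Of 5 let-7 genes under DMSO peaks 4 were retained, at 3 places, and their mature 5p sequences share 1 seed (bases 2 to 8, in capitals; RefSeq, GRCm38.p6). The arms of miR-21a and miR-142a, both abundant in lymphocytes, are shown with their own seeds.
mmu-let-7a-5p: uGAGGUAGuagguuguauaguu
mmu-let-7f-5p: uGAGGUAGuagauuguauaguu
mmu-let-7g-5p: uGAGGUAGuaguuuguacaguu
mmu-let-7i-5p: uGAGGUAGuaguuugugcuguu
mmu-miR-21a-5p: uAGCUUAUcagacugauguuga
mmu-miR-142a-3p: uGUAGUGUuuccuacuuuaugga
Mirlet7a-1 and Mirlet7f-1 lie beside each other on chromosome 13 (chr13:48538179-48538272 and chr13:48537829-48537917), in a domain of 8.43 kb with no coding gene, a DMSO fold of 9.76 and 87.4% coverage. Mirlet7d, beside them on chromosome 13, lies under a separate 0.618 kb DMSO peak (fold 3.19) with no EPZ coverage. Mirlet7g (chr9:106178840-106178927) lies in the domain of Wdr82, covered over 70.1%, and Mirlet7i (chr10:122985640-122985724) in its own, covered over 56.0%. Mir21a (chr11:86584067-86584158) had the most complete coverage of these, 90.6% of the 4.93 kb domain named by Vmp1, with a DMSO fold of 10.8. Mir142 (chr11:87756864-87756927) lies in a 27.5 kb domain named by Supt4a, covered over 76.1%. The 6 genes of the Mir17hg cluster, which acts downstream of Myc, share a 2.55 kb domain covered over 58.7%, and Mir23a, Mir27a and Mir24-2 one of 8.04 kb covered over 63.5%.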

How the data were processed

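H3K79me2 ChIP-seq was analysed from the deposited peak lists, 1 per treatment; reads were not used here. Per the submitters' processing notes the tools were MACS2 2.2.7.1, Picard and BWA 0.7.17-r1188 with the builds mm10 (GRCm38) and sacCer3. Not given in the sources used here is how replicates were pooled, and whether input or spike-in scaled the calls. Each broad peak carries the authors' fold enrichment, a linear ratio, and the deposited −log10 q-value, both used only to describe or filter peaks within a list. Columns of other samples numbered 0.

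Bases of each DMSO peak under the union of EPZ peaks were counted (Python 3.11.15, numpy 2.4.6, pandas 2.3.3, scipy 1.17.1, matplotlib 3.10.9). The counting and the motif search were checked on simulated intervals and sequences. An overlap needed 1 base. Names come from RefSeq genes of GRCm38.p6; a domain is named by the coding gene it overlaps most. Start positions and strands come from a promoter table covering 17491 of 21896 coding genes; chromosome 18 starts were not used here. Distances used domains with listed starts of only 1 coding gene that touched no other coding gene, and ran from the most upstream of those starts. Gene lists matched by symbol, with 0 of 1397 unmatched. Intervals are exact (Clopper-Pearson, 95%). With 1 list per treatment no test was run.

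The members and lists were chosen with earlier results of these data known. Named domains are the 10 of highest and of lowest DMSO fold, the 10 widest, the 10 widest covered in full, the 10 with most SGC bases, the 4 nearest the limit on each side, and the highest and lowest coverage in each list. Other list members, microRNAs and loci in the text were chosen after their values were seen. Some genes that the rule names or that belong to a list are counted but not reported here by name. Alternatives changed the coverage limit, the peaks used, the start and gene assignment and the promoters counted.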

Additional observations from a re-analysis of the deposited data

How the results depend on the processing

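No paired analysis was possible because each treatment has 1 peak list that carries no replicate; a replicate block and leaving out a replicate were therefore not run. Of 46 alternatives, 25 left their result within the limits used and 21 moved it. The 25 include filling or joining gaps within 1 kb, which could change no domain. They also include the q filter on both lists, at 770 domains and 879 genes, so the split does not measure stability. Chosen after seeing the data were the coverage limits and peak filters applied to SGC peaks, gene starts, fold, width, genes and reach. The exception was the q filter on members for fold and width. The number of retained domains was 2262 at a limit of 25%, 268 at 75% and 46 at 90%, and 770 with both lists at a −log10 q of 5 or more. At limits of 25% and 75%, 1.81% and 9.70% of them touched an SGC peak, their median DMSO fold was 6.76 and 9.05, their median width 8654 and 12220 bases, the genes touched 2554 and 277, and the median EPZ reach past the start 4668 and 12704 bases. With the q filter 4.94% touched an SGC peak, 59.4% held a gene start, and the median fold and width were 8.53 and 10541 bases. With EPZ peaks at or above their median fold, 57.9% held a start and the median fold was 8.27. A start was counted in 78.1% when allowed within 1 kb and in 58.1% with all annotated genes. Filling EPZ gaps or joining DMSO peaks within 1 kb changed no domain, since the smallest gaps are 1214 and 1123 bases. The number of gene lists above the share of all marked genes was 21, against 23 at 25% and 19 at 75%. What limits these data is the single call per treatment: a base outside a peak is a base below a threshold, and the depth is unknown.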

Other observations

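Antigen receptor loci, which the annotation does not list as protein-coding genes, held 9 of the retained domains. At the T cell receptor alpha locus 4 of 9 DMSO peaks were retained, and EPZ peaks covered 94.5 of their 96.5 kb. At the beta locus 1 of 3 was retained, with 21.4 of 23.6 kb covered and 8.27 kb under SGC peaks. At the gamma locus 3 of 5 were retained, with DMSO folds of 2.62 to 4.28, the weakest of the 4 loci. The immunoglobulin heavy chain locus had 1 of 2 retained, with a DMSO fold of 13.6, 68.6% coverage and 0.951 kb under SGC peaks. Whether reads at the alpha and beta loci come from the OT-I transgene or from the endogenous genes cannot be told apart in a peak list.

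EPZ peaks ran past an end of the DMSO domain in 57 retained domains (5.34%) and 23 partly covered ones (0.994%). In 5 and 3 of these the EPZ peak also touched another DMSO peak, among them the pair at the gamma locus. The stretch past the end was 2.46 kb at Gm40892, 1.65 kb at the beta locus, 1.47 kb at a 307-base peak of the alpha locus, 1.25 kb at Iigp1 and 1.06 kb at Malat1. Of the 20 retained domains named by a long noncoding RNA, 6 lay over small nucleolar RNA host genes: Snhg15 (75.1% covered), Snhg12 (65.7%), Snhg5 (60.3%), Snhg7 (56.1%), Snhg8 (55.1%) and Snhg3 (52.0%). Another retained domain lay within 10 kb of 61 members (5.72%). By chromosome the retained share of DMSO peaks lay between 5.78% on chromosome 18 and 10.6% on chromosome 10, apart from 1 of 6 peaks on the Y chromosome.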
